A study of Drosophila melanogaster with 4 samples.

Results

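The 1150 regions of chromosome arm 2L that the combined HP1c list called enriched are described here, out of 6891 such regions over all sequences. They were taken as every row of the list placed on 2L and not named as depleted, and regions on the separate scaffold 2LHet were not counted. The lists of the individual ChIP libraries, taken by the same rule, gave 931 of 5586 regions for replicate 1 and 1004 of 5946 for replicate 2. The arm thus held 16.7%, 16.7% and 16.9% of the combined, replicate 1 and replicate 2 lists.

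The study mapped HP1c in Oregon-R larvae of the third instar, labelled wild type, by chromatin immunoprecipitation followed by sequencing (ChIP-seq). There were 2 HP1c ChIP libraries and 2 input DNA libraries, all of the same strain, stage and genotype, so there is no treated or mutant group to compare. No dissected tissue and no sex is named, and each list therefore sums over whatever tissues were homogenised. The antibody is a rabbit polyclonal serum against a fragment of HP1c, and only the ChIP libraries came with region lists that were used here.

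HP1 proteins carry a chromodomain, which can bind methylated histone H3, and a chromoshadow domain, through which they pair and recruit partners. HP1a is the family member concentrated in the heterochromatin around centromeres, whereas HP1c lies mainly in euchromatin, where it forms a complex with the zinc-finger proteins WOC and ROW and is known at the starts of active genes. 2L is the left arm of the second chromosome and is largely euchromatic, with its telomere at low and its centromere at high coordinates. Coordinates below are those of FlyBase release 5, in which 2L measures 23011544 bp, and no annotation of that release was used, so regions are named by position and not by gene.

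HP1c regions covered 10.5% of 2L in replicate 1 and 11.8% in replicate 2, or 11.2% ± 0.90 (SD, n = 2). There were 40.5 and 43.6 regions per Mb, or 42.0 ± 2.2. The combined list covered 13.0% of the arm with 50.0 regions per Mb. Regions were a few kilobases wide, with a median of 2261 bp in replicate 1 and 2292 bp in replicate 2. Their middle range, from the lower to the upper quartile, ran from 1983 to 2724.5 bp in replicate 1 and from 2012 to 2959.5 bp in replicate 2. The widest measured 10512 bp and 10496 bp. Each region carries a score given by the authors, whose scale the sources used here do not state and which ran on 2L from 0.099 to 4.01 in replicate 1 and from 0.041 to 4.42 in replicate 2. The labels do not say whether each replicate is a larval collection of its own, so the SD may be technical, and the read depth behind the lists is unknown.

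Most regions of 2L were found in both replicates. Of the 1150 combined regions, 830 overlapped a region of each replicate by at least 1 bp, which is 72.2% (exact Clopper-Pearson 95% interval 69.5 to 74.7, counting error only), against 71.1% over all sequences. A further 157 (13.7%) overlapped replicate 2 alone, 67 (5.83%) overlapped replicate 1 alone and 96 (8.35%) overlapped neither. For these classes no share over all sequences was taken, so they are not compared with the whole list. The 830 regions made up 82.8% of the bases the combined list covered on the arm. Taken from the replicates, 853 of 931 regions of replicate 1 were overlapped by replicate 2 (91.6%, interval 89.7 to 93.3, against 90.4% over all sequences). In the other direction 838 of 1004 regions of replicate 2 were overlapped (83.5%, interval 81.0 to 85.7, against 83.7% over all sequences). All 3 shares on 2L lie close to those of the whole lists.

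Overlap on 2L, counted against the other lists in full, depended on the score and was nearly complete above the lower 2 of 5 equal score bands of each list. The shares over all bands stayed within their intervals when every list was cut to its upper 50% by score. They were then 91.8% for replicate 1, 83.7% for replicate 2 and 72.0% for combined regions in both. This cut also removed partners from the other lists, so these shares cannot show how overlap depends on the score. In replicate 1 the lowest band, from 0.099 to 0.47, was overlapped in 74.9% of regions (interval 68.0 to 80.9), the next band in 83.9% and the middle band in 99.5%. In each of its upper 2 bands all 186 regions were overlapped. In replicate 2 the lowest band was overlapped in 45.3% (38.3 to 52.4), the next in 77.6% and the middle in 96.0%. Of the combined regions in the lowest band 17.4% (12.7 to 22.9) overlapped both replicates, against 98.3% (95.6 to 99.5) in the highest. Regions without a partner were also narrower. Their median width was 1706.5 bp in replicate 1 and 1866.5 bp in replicate 2, against 2314 and 2406.5 bp for those with one. Width and score moved together on the arm (Spearman rho 0.80 in replicate 1 and 0.78 in replicate 2, across regions of 1 library, which are not independent), so their parts in the overlap cannot be told apart.

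**Figure D1:**
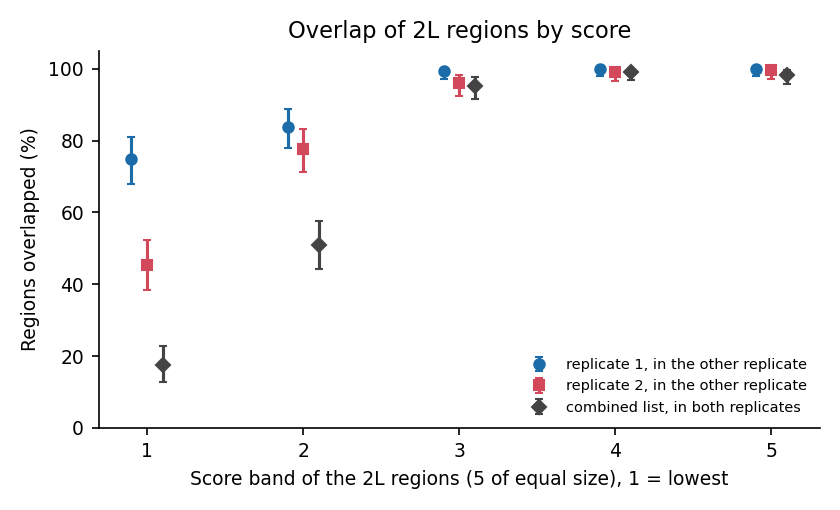
Percent of 2L regions overlapped, by score band within each list (5 bands of equal size, 1 is the lowest), for replicate 1 and replicate 2 against the other replicate and for combined regions against both. Bars are exact 95% binomial intervals. From the middle band upward all points lie at 95.2% or higher, and in the lowest band they spread from 17.4% to 74.9%.

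Where the replicates met, they placed the same region at nearly the same position. A total of 808 regions paired one to one, meaning that each overlapped the other and nothing else. The midpoints of a pair lay a median of 42.5 bp apart, and 588 pairs (72.8%) had midpoints within 100 bp of each other. The shared stretch made up a median of 94.8% of the wider region. No pair had identical ends. Replicate 2 regions were the wider ones in 571 of the 808 pairs. Over all 808 pairs, replicate 2 regions started a median of 35 bp earlier and ended a median of 35 bp later.

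The order of the regions by score was largely kept between replicates, while the level was not. Across the 808 pairs Spearman's rho was 0.91, as a description over pairs that share 2 libraries. The score was higher in replicate 2 in 635 pairs (78.6%), with a median difference of 0.30 and quartiles of 0.037 and 0.54. The differences of single pairs ran from -0.90 to 1.35. The largest rank gain in replicate 2 was at 157753 to 159985, which scored 0.26 in replicate 1 and 1.34 in replicate 2 and moved from rank 788 to rank 431 of the pairs. It was also wider in replicate 2, at 2233 against 1505 bp. The next ones lay at 2485957 to 2488139 (0.47 and 1.49), 3038892 to 3041057 (0.25 and 1.10), 5541288 to 5543577 (0.53 and 1.57) and 403023 to 405223 (0.40 and 1.27). In the opposite direction the region at 7375287 to 7377432 scored 1.21 in replicate 1 and 0.42 in replicate 2, falling from rank 365 to rank 732. It was followed by 13954820 to 13957001 (1.60 and 0.69), 3554763 to 3556920 (1.08 and 0.43), 4649898 to 4652133 (1.06 and 0.53) and 14371404 to 14373534 (0.75 and 0.23). All 10 were called in both libraries, as the choice from pairs requires.

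**Figure D2:**
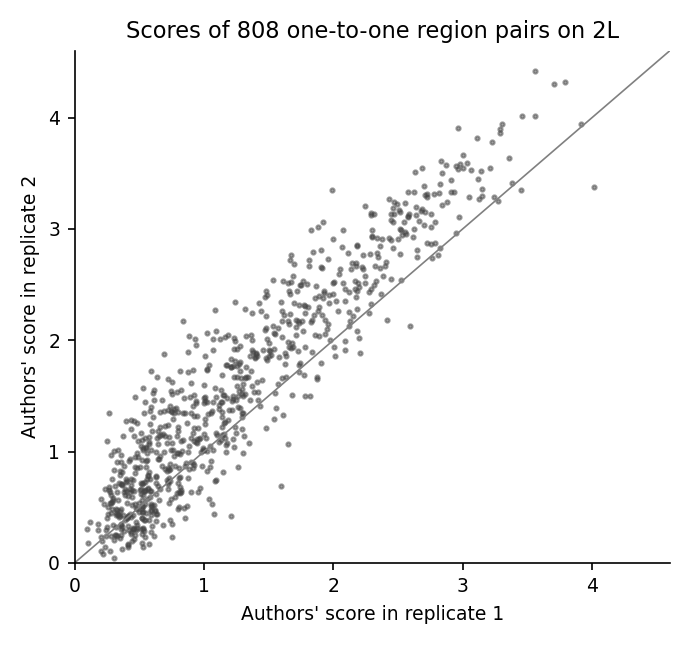
The authors' score of each one-to-one pair of 2L regions in replicate 1 (x axis) and replicate 2 (y axis), with the line of equal scores. Of the 808 points, 635 lie above the line, and the order is largely shared (Spearman rho 0.91).

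The highest-scoring combined regions of 2L were strong in both libraries, as their choice from a list of the same libraries largely requires. The first was 18687658 to 18690768, with a score of 4.06 in the combined list, 3.79 in replicate 1 and 4.32 in replicate 2, where it ranked 3 and 2 on the arm. The second, 7798694 to 7801508, scored 4.05, 3.56 and 4.42, and was the highest of replicate 2. The third, 5277316 to 5280192, scored 4.02, 3.70 and 4.31. These 3 regions were 2815 to 3111 bp wide.

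The other 9 of the 12 strongest combined regions that overlapped both replicates were found between 413686 and 20351678. They lay at 13175680 to 13178292, 6965590 to 6969622, 13377442 to 13380078, 1168764 to 1171468, 8161300 to 8164274, 3300906 to 3304638, 20348880 to 20351678, 413686 to 416168 and 13372652 to 13375278. Those at 13175680, 13372652 and 13377442 stood close together. All 12 had combined scores of 3.49 to 4.06, replicate 1 scores of 3.11 to 4.01 and replicate 2 scores of 3.37 to 4.42. They measured 2483 to 4033 bp and none was among the 10 widest. Replicate 2 scored higher in 11 of the 12. The exception was 3300906 to 3304638, the strongest region of replicate 1 at 4.01 but only rank 33 in replicate 2 at 3.37. Their surroundings differed. The region at 13175680 had a neighbour 13 bp away, whereas that at 20348880 had none within 64007 bp and that at 3300906 none within 36153 bp.

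Along the arm, HP1c coverage varied 4.31-fold between full windows of 1 Mb. The densest window ran from 10 to 11 Mb, with 16.8% covered in replicate 1 and 18.3% in replicate 2 (17.6% ± 1.1, SD, n = 2) and 60 regions in each. Next came 19 to 20 Mb with 15.6% and 17.4% (16.5% ± 1.3) and 8 to 9 Mb with 14.5% and 15.2% (14.8% ± 0.49). The sparsest was 17 to 18 Mb, with 3.42% and 4.73% (4.08% ± 0.93) and 15 and 20 regions. It was followed by 15 to 16 Mb with 6.43% and 7.45% (6.94% ± 0.72) and 14 to 15 Mb with 6.89% and 7.10% (7.00% ± 0.15). The replicate values of the 3 densest windows did not overlap those of the 3 sparsest, as the choice of windows requires.

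The profile was shared by the replicates over the 23 full windows, with replicate 2 higher in all 23, by 0.21 to 2.48 percentage points. Pearson's r was 0.99 and Spearman's rho 0.97, as a description, since windows share 2 libraries and neighbour each other. Dense windows were not simply windows of strong regions. The window from 19 to 20 Mb had median scores of 0.64 and 0.86, below the arm's 0.95 and 1.14, while 10 to 11 Mb had 1.25 and 1.76. The rho of coverage with median score across windows was 0.23 in replicate 1 and 0.31 in replicate 2.

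**Figure D3:**
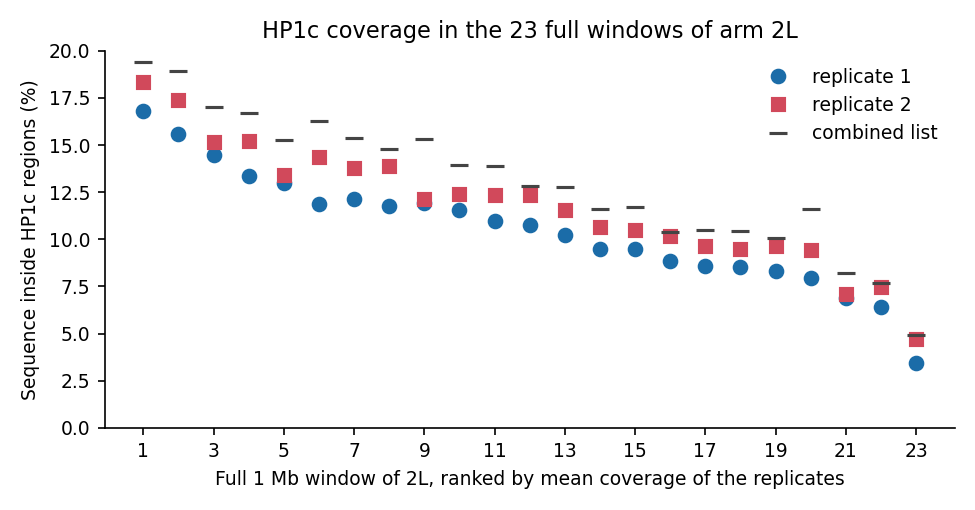
Percent of sequence inside HP1c regions in each of the 23 full 1 Mb windows of 2L, ranked by the mean of the replicates, with 1 point per list. Replicate 2 lies above replicate 1 in every window, and the mean of the replicates falls from 17.6% to 4.08%.

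At a finer scale the regions of 2L were unevenly spread. Other arms were not counted in this way, so the spread is not compared with theirs. Among 230 windows of 100 kb, counted by region midpoints in the combined list, the mean was 4.99 regions and the median 5. Of these windows 24 held 10 or more regions, and 27 held none. The 24 windows carried 285 regions (24.8%), and 61 windows sufficed for 50% of all regions. The fullest ran from 10.3 to 10.4 Mb with 15 combined regions, 12 of them in both replicates, and was covered to 42.0% in replicate 1 and 47.0% in replicate 2. Its neighbour from 10.2 to 10.3 Mb followed with 14 regions and 36.6% and 44.0%. The other 3 windows lay between 19.0 and 19.5 Mb. Those from 19.1 to 19.2 Mb and from 19.4 to 19.5 Mb held 14 regions each, and that from 19.0 to 19.1 Mb held 13 and was placed ahead of others with 13 by its coverage. These 3 were covered to between 28.9% and 37.0% in the replicates. Their median combined scores, 0.63 to 0.68, lay below the 1.63 and 1.92 of the 2 windows near 10 Mb.

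Part of the regions of 2L had a close neighbour. The gap between adjacent regions had a median of 8106.5 bp in replicate 1 and 7501 bp in replicate 2, and 102 of 930 and 118 of 1003 gaps were under 1 kb. On 2R, 3L and 3R the median gap was 7537, 7719 and 7770 bp in replicate 1. In replicate 2 it was 7154.5, 7734 and 6890 bp. On X it was 5500 and 4833 bp. Gaps under 1 kb were not counted on other arms. In the combined list 278 of 1150 regions (24.2%) stood in chains with gaps under 1 kb, of which 107 were pairs and 19 had 3 regions or more. The longest chain held 5 regions, all found in both replicates, at 11987036 to 12013302, where 94.4% of 26267 bp was covered, with scores from 0.72 to 3.49. Isolated regions scored lower in both libraries. With the nearest neighbour under 1 kb away the median score was 1.01 in replicate 1 and 1.35 in replicate 2, and with none within 20 kb it was 0.75 in each (89 and 98 regions). The median width went from 2316 and 2364 bp to 2163 and 2101.5 bp in the same classes.

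Long stretches without HP1c regions took up 27.9% of the arm or more in each replicate. Stretches of at least 100 kb between adjacent regions numbered 41 in each replicate and made up 29.2% of 2L in replicate 1 and 27.9% in replicate 2 (28.5% ± 0.86, SD, n = 2), and 36 made up 24.4% in the combined list. With all 3 lists pooled, 35 such stretches remained, 5.44 Mb in all. They were most frequent between 15 and 20 Mb, where 11 of the 35 had their midpoints and 37.7% of the sequence lay in them. From 5 to 10 Mb there were 4, over 11.2% of the sequence. The share was 20.6% from 0 to 5 Mb, 26.6% from 10 to 15 Mb and 20.9% beyond 20 Mb.

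The longest stretch, 15924083 to 16250707, spanned 327 kb and was followed by 16889593 to 17206298 with 317 kb. Next were 14699191 to 14994173 (295 kb), 11529867 to 11805264 (275 kb), 21882949 to 22110893 (228 kb), 12205698 to 12414791 (209 kb), 17783171 to 17962278 (179 kb) and 5547911 to 5723096 (175 kb). Some ended at strong regions. The stretch from 11529867 lay between combined regions with scores of 2.33 and 2.75, and that from 16889593 between regions of 3.35 and 0.33. The region of 0.33 overlapped replicate 2 alone, and the rest of these were found in both replicates. Others ended at weak ones, such as that from 15924083, between regions of 0.22 and 0.36. Whether these stretches can be aligned to in full is not known from the lists.

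Coverage was compared between 2L and the other autosomal arms, with these stretches and without them. Coverage of 2L was 10.5% and 11.8% in the replicates, against 11.2% and 12.5% for 2R, 3L and 3R pooled, a ratio of 0.94 ± 0.0055 (SD, n = 2). The ratio was 0.88 to 2R, 0.95 to 3L and 0.99 to 3R. The share of the arm in stretches of 100 kb or more was 20.8% and 17.4% on 2R, 24.2% and 24.2% on 3L and 27.5% and 26.0% on 3R. Each value for 2L, 29.2% and 27.9%, lay above each of these. Outside the stretches, coverage was 14.9% and 16.4% on 2L, 15.0% and 16.3% on 2R, 14.9% and 16.1% on 3L and 14.6% and 16.1% on 3R. There the ratio of 2L to the other autosomal arms was 1.01 ± 0.0082, but it depended on the regions and length chosen. It was 0.95 with only stretches of 150 kb or more left out, close to the ratio over whole arms, and 1.11 in the upper 50% of each list. Coverage outside stretches follows from the coverage of the arm and its share in stretches and is not a separate measurement. X was covered to 19.0% and 20.0% outside its stretches. With 1 arm and 2 libraries no test of these differences was made, and nothing is claimed to be particular to 2L. The order of 2L and 3R depended on the length chosen. For stretches of 150 kb or more 3R had 17.8% and 18.1% and 2L 16.5% and 13.9%, and for those of 50 kb or more 3R had 48.0% and 45.9% and 2L 49.4% and 45.2%.

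**Figure D4:**
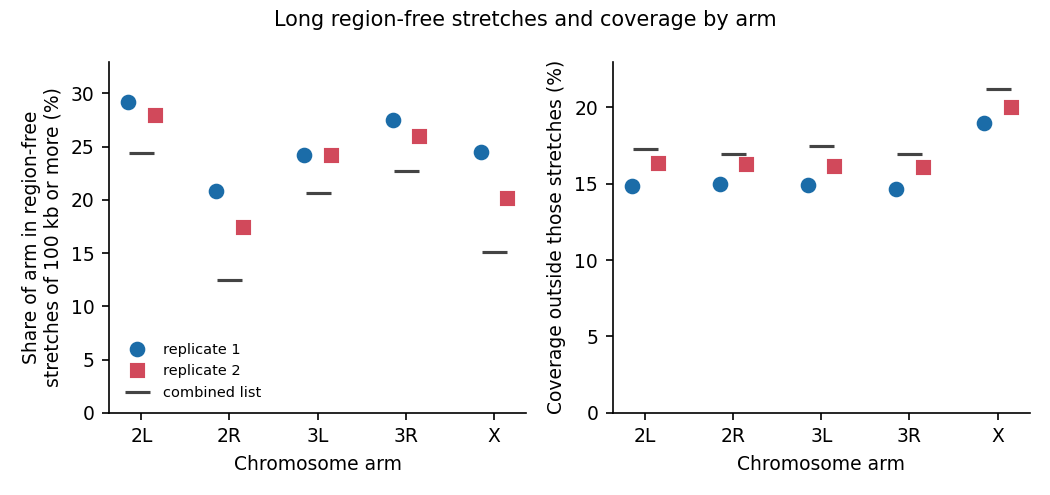
Left, percent of each arm in region-free stretches of 100 kb or more. Right, percent of the remaining sequence inside HP1c regions, with 1 point for each replicate and a bar for the combined list. On the left 2L is highest in all 3 lists, and on the right the replicates of the autosomal arms lie between 14.6% and 16.4%.

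Towards the centromere the regions of 2L became wide. In the last 1 Mb of the arm 10 of 27 regions of replicate 1 (37.0%) and 8 of 29 of replicate 2 (27.6%) were wider than 5 kb. In the rest of the arm 31 of 904 (3.43%) and 44 of 975 (4.51%) were. The median width was 4071 and 3862 bp there, against 2253.5 and 2284 bp elsewhere, and the median score was 1.40 and 1.85 against 0.93 and 1.13. In the combined list the shift in median width was smaller, from 2227 bp elsewhere to 2711 bp in the last 1 Mb. The number of regions was low, at 27 in each replicate for the window from 22 to 23 Mb, which was nonetheless covered to 11.9% and 12.1%. The first 1 Mb at the telomere side had 54 and 55 regions, of which 2 and 3 were wider than 5 kb. Over the last 5 Mb together, coverage was 11.7% and 13.1%, against 10.2% and 11.4% for the rest, a ratio of 1.15 ± 0.0010, but over the last 3 Mb the ratio was 0.99. The last 5 Mb begin after the sparsest window and hold the dense one from 19 to 20 Mb.

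Wide regions at the centromere side were also listed on 2R and 3L. Within 1 Mb of that end, 5 of 25 and 7 of 25 regions were wider than 5 kb on 2R and 2 of 14 and 3 of 10 on 3L. On 3R there was 1 of 46 and 1 of 59, and on X 2 of 17 and 3 of 23. In the replicates the share of wide regions there was 14.3% to 37.0% on 2L, 2R and 3L, 11.8% and 13.0% on X, against 5.57% and 7.45% in the rest of X, and 2.17% and 1.69% on 3R. These counts are small and the arms were not tested against each other. The median width within 1 Mb of that end in the combined list was 2073 bp on 2R, against 2257 bp in its rest. On 3L it was 3785 bp against 2227 bp.

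**Figure D5:**
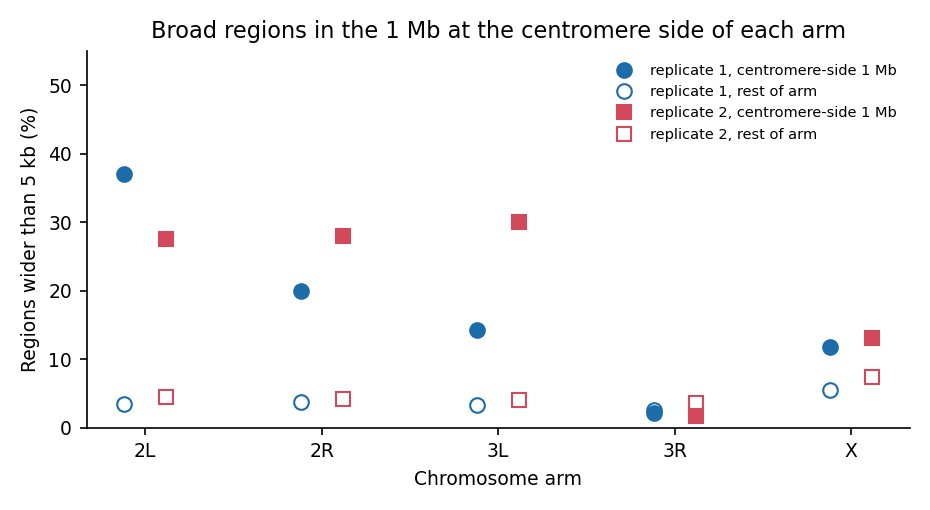
Percent of regions wider than 5 kb within 1 Mb of the centromere side of each arm (filled) and in the rest of the arm (open), for each replicate. On 2L the filled points are at 37.0% and 27.6% and the open points at 3.43% and 4.51%.

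The combined list had 63 regions wider than 5 kb on 2L, all found in both replicates, and 12 of them lay in the last 1 Mb. Over all sequences 71.1% of combined regions of any width were found in both. That share was not taken for wide regions alone, so the full overlap is not read as a trait of 2L. The widest was 22959712 to 22970506, 10795 bp wide, with widths of 10512 and 10005 bp and scores of 1.97 and 2.41 in the replicates. The second, 7417738 to 7428198, measured 10461 bp and lay far from the centromere, with scores of 2.55 and 3.06. The other 8 of the 10 widest lay at 22643604 to 22653186, 5286516 to 5295932, 840414 to 849404, 22869398 to 22878052, 2195688 to 2204308, 22915350 to 22923678, 22464744 to 22473000 and 10326960 to 10335144. Thus 5 of the 10 began beyond 22 Mb. The 10 widest had combined scores of 0.95 to 2.82 and ranks from 77 to 517 among the 1150. All 63 together had scores of 0.65 to 3.32 with a median of 1.83, above the arm's median of 0.81 and its upper quartile of 1.68. The last of them, at 10326960, joined 3 regions of replicate 1 and 2 of replicate 2 and lies in the fullest window of 100 kb. Such joining was rare, since 23 of the 897 combined regions that overlapped replicate 1 met more than 1 of its regions, and 9 of 987 did so for replicate 2.

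The strongest regions found in replicate 2 alone lay at the centromere end. The highest-scoring regions of replicate 2 without a partner were 23002385 to 23004592, with a score of 3.15 and rank 65 on the arm, and 22999820 to 23001493, with 2.20 and rank 224. Replicate 1 listed no region beyond 22998828. Next were 1107375 to 1109594 (1.57), 426475 to 428700 (1.30) and 22658484 to 22660002 (1.29). In replicate 1 no region without a partner scored above 0.99. Its highest were 626518 to 628013 (0.99), 6944903 to 6947193 (0.70), 11848840 to 11850889 (0.63), 9436463 to 9438915 (0.63) and 6830089 to 6831414 (0.62). The combined list held 67 of the 78 replicate 1 regions without a partner and 155 of the 166 of replicate 2. For these counts no share over all sequences was taken, so they are not compared with the whole lists.

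Combined regions with no counterpart in either replicate were narrow, and a few scored high. The 96 such regions had a median width of 1252 bp, against 2496 bp for those in both. The 3 highest, all beyond 22.5 Mb, were 23008862 to 23009870 and 22788268 to 22789376, with the same score of 3.35, and 22572622 to 22573622 with 2.98. They were 1009, 1109 and 1001 bp wide, below the 1301 bp minimum of both replicate lists. The next, 13243494 to 13244512 and 20891388 to 20892528, scored 1.14 and 1.08. In the last 1 Mb 12 of 42 combined regions (28.6%) overlapped neither replicate, against 8.35% over the arm. That share was not taken for other arm ends or all sequences, so whether it is particular to this end was not tested. Over whole arms, 47.1% of combined regions on chromosome 4 overlapped both replicates, against 70.4% to 74.2% on the longer arms. All 83 combined regions of 2L narrower than 1300 bp failed to overlap both replicates, and 57 of them overlapped neither. These counts were not taken over all sequences, so they are not read as a trait of 2L. The sources used here do not say how the authors joined the replicates, so the part of that step in these calls was not tested.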

How the data were processed

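Per the submitters' processing notes, reads of the 4 samples were aligned with Bowtie 0.12.7, and per the file headers positions refer to FlyBase release 5. The authors deposited enriched regions with 1 score each, called per ChIP library and for the replicate set. For the caller, its threshold, the score's scale and the joining of replicates, nothing is given in the sources used here. Depth is unknown and limits were not computed from it. The input libraries were not analysed here.

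Starting from these lists, overlap meant at least 1 shared bp, coverage the percent of a sequence inside regions, and stretches were gaps between adjacent regions, arm ends left out. Replicates are given as values and mean ± SD, shares with exact 95% intervals. No hypothesis test was made, because the design has 1 condition. The gene table at hand is of release 6 and was not used. Regions were named by fixed rules: the 12 strongest and 10 widest in both replicates, the 8 longest stretches, 3 densest and 3 sparsest windows, and the 5 extremes of each other kind. The members and lists were chosen with earlier results of these data known. The measures of long stretches and of wide regions at the arm end were added after seeing the data. Interval steps were tested on simulated data. Alternatives are given in the closing section. Computations used Python 3.11.15, numpy 2.4.6, pandas 2.3.3 and scipy 1.17.1.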

Additional observations from a re-analysis of the deposited data

Results flagged for a closer look

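The combined list held 4 rows on 2L named as depleted, out of 11 over all sequences, which no comparison used. They lie at 12519610 to 12521338, 13770266 to 13771940, 15441460 to 15443184 and 20694426 to 20696092, with widths of 1667 to 1729 bp and scores of -0.00069, -0.031, -0.016 and -0.049. None overlapped a region of replicate 1, and 3 overlapped a weak enriched region of replicate 2, with scores of 0.064, 0.30 and 0.13, ranked 1002, 902 and 995 of its 1004 regions on the arm.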

How the results depend on the processing

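Besides leaving out a replicate, 47 alternatives were run over 13 results, of which 19 left the value within its replicate SD or its 95% interval and 28 moved it. The SD rests on 2 values, so the tally depends on how close the libraries were and does not measure stability. With regions merged, the ratio for the last 5 Mb counted as moved at 1.149 against 1.151. The share of wide regions in the last 1 Mb did not, at 37.2% against 32.3%. Results on long stretches and on wide regions at the arm end were chosen after seeing the data. With the upper 50% by score alone, coverage of 2L was 6.74%, regions per Mb 21.0, the ratio to the other autosomal arms 0.97 (1.11 outside long stretches), the median width 2651.5 bp, the ratio of the last 5 Mb to the rest 1.20, the rho of width with score 0.28, the rho between replicate scores 0.89, the share of 2L in long stretches 54.0% and the share of wide regions in the last 1 Mb 40.4%. Removing regions must lower coverage and lengthen stretches, and the cause of the other shifts was not tested. The combined list gave a coverage of 13.0%, 50.0 regions per Mb, a median width of 2230 bp, a ratio of 1.17 for the last 5 Mb, a rho of 0.78 for width and 24.4% in long stretches. Merging regions less than 500 bp apart gave 39.2 regions per Mb, 2315 bp, 1.15 and a rho of 0.77. A reciprocal overlap of 50% lowered the share of replicate 1 regions overlapped to 88.1%. The ratio of 2L coverage was 0.88 to 2R alone and 0.99 to 3R alone, and the ratio for the last 3 Mb, 0.99, fell on the other side of 1. Stretches of 50 kb and 150 kb made up 47.3% and 15.2% of 2L, and leaving out those of 150 kb gave a ratio of 0.95 to the other arms. In the last 2 Mb 18.8% of regions were wide. Leaving out either of 2 replicates gives the other's value, which lies within the SD by arithmetic and says nothing about stability, and the overlap shares and the rho between replicates need both. No paired analysis was possible because the lists belong to 1 group, the ChIP libraries. Read depth is unknown, so whether it limits the regions found in 1 replicate cannot be said.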

Other observations

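The deposited scores repeat. On 2L the score of 97 of 931 regions in replicate 1, 66 of 1004 in replicate 2 and 68 of 1150 in the combined list recurs in another region of the same list to within 1e-09. With differences of a whole number included, the counts are 133, 98 and 93. The 3.35 shared by 2 narrow regions near the centromere end is 1 such value, held by 2 regions in the whole list. Regions with a recurring score were narrower than the arm's median, at 1888, 1941.5 and 1726 bp.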
